A study of Mus musculus with 6 samples.

Results

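The genes described here code for the cytoplasmic relay that carries a signal from Toll-like receptors and the interleukin-1 receptor family to NF-kB. They are 10 of the 24379 genes in the deposited count table, chosen by name: the adaptor genes Myd88 and Ticam1, the 4 IRAK kinase genes Irak4, Irak1, Irak2 and Irak3, the TAK1 gene Map3k7 with its partner Tab2, and the IKK subunit genes Ikbkb and Ikbkg. All 10 were found in the table by their Ensembl identifiers, and all 10 passed the filter on low counts. The cells were RAW264.7, an established mouse line with macrophage features that descends from a tumour caused by a leukaemia virus, and their RNA was sequenced. Of the 6 libraries, 3 are labelled as treated with HFCS, a syrup rich in fructose and glucose, and 3 as WT, which serve as the control. Every library carries a time of 18 h. The dose of HFCS is 140 mM in the titles, the treatment labels and the growth protocol, and 170 mM in the source names only. No label says what medium the control cells received.

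Total counts were 13108485 to 15340255 per library. The labels do not tie replicates to separate cultures, and the p-values thus reflect a spread among libraries that could be technical only. In these bulk samples, a change in the cells that make up a culture and a change of RNA per cell cannot be told apart. All 10 macrophage markers looked for were counted, with summed levels of 2273 to 2285 CPM (a gene's share of a library's counts after TMM scaling) in HFCS and 1945 to 1995 CPM in control libraries. Of these, 7 were called higher in HFCS, Adgre1 (log2 fold change 1.04) and Fcgr1 (1.56) among them. Csf1r (-0.67) and Cd68 (-0.42) were called lower, and Mertk was too low to test. All 9 tested markers were thus called, where the same test called 44.9% of all tested genes, 22.4% higher and 22.5% lower. Of the other markers looked for, the table held 4 of 5 fibroblast, 1 of 5 epithelial, 3 of 4 B cell and 3 of 5 T cell genes. The epithelial sum is thus Krt8 alone. Fibroblast, epithelial and B cell markers in the table summed to at most 1.08 CPM for each cell type in any library. Endothelial markers summed to 13.8 to 16.3 CPM in HFCS and 12.7 to 15.5 CPM in control libraries. Of the 2 endothelial markers tested, Cdh5 was lower in HFCS (-1.37) and Vwf did not pass. T cell markers summed to 7.46 to 8.62 CPM in HFCS and 3.89 to 5.69 CPM in control libraries, with Lck higher (0.73). The part of these markers in the results below was not tested. Control replicate 1 lay apart from control replicates 2 and 3 on the second principal component (29.3 against -14.2 and -13.4), which held 11.8% of the variance, and HFCS replicate 3 lay apart from HFCS replicates 1 and 2 (-18.9 against 8.89 and 8.23). The libraries are called HFCS-labelled and control-labelled, because Akr1b3, the aldose reductase gene, a known marker of hypertonic stress, stood at 208 ± 12.0 CPM under the HFCS label and at 7435 ± 381 CPM under the control label (mean ± SD, n = 3 each). Each direction below rests on those labels and would be reversed if they were exchanged, which was not tested.

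In macrophages, MyD88 binds the cytoplasmic domain of an activated receptor and gathers IRAK4, which activates IRAK1 and IRAK2. Those kinases engage the ubiquitin ligase TRAF6, whose chains are bound by TAB2 and bring in the kinase TAK1, and TAK1 activates the IKK complex that releases NF-kB. TRIF, the product of Ticam1, is the separate adaptor of TLR3 and of TLR4 inside endosomes, while IRAK3, also called IRAK-M, is an IRAK relative that lacks kinase activity and is known as a brake on this relay in macrophages.

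Irak3, the gene of the inhibitory IRAK, was 2.40-fold higher under the HFCS label, while the genes of the adaptors and of the kinases IRAK1, TAK1 and IKKβ did not pass the test. Tab2 and Irak2 rose by 0.32 and 0.23 on the log2 scale, and Ikbkg, which codes for the regulatory subunit NEMO, fell by 0.30. In all, 3 of the 10 genes were higher and 1 was lower past an adjusted p of 0.05. Over all 14360 tested genes the same test called 44.9% of genes, 22.4% higher and 22.5% lower, so that the 40.0% of the 10 genes lay near the background. Their median log2 fold change was 0.07 against -0.00452 over all tested genes, and their median size of change, without sign, was 0.16 against 0.33. The libraries of the groups did not overlap for 5 of the 10 genes, against 54.5% of all tested genes. With library size alone in place of TMM scaling, the split of all calls moved from 3223 higher and 3224 lower to 3975 higher and 2624 lower (60.2% higher), and the median log2 fold change of all genes to 0.08.

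**Figure D1:**
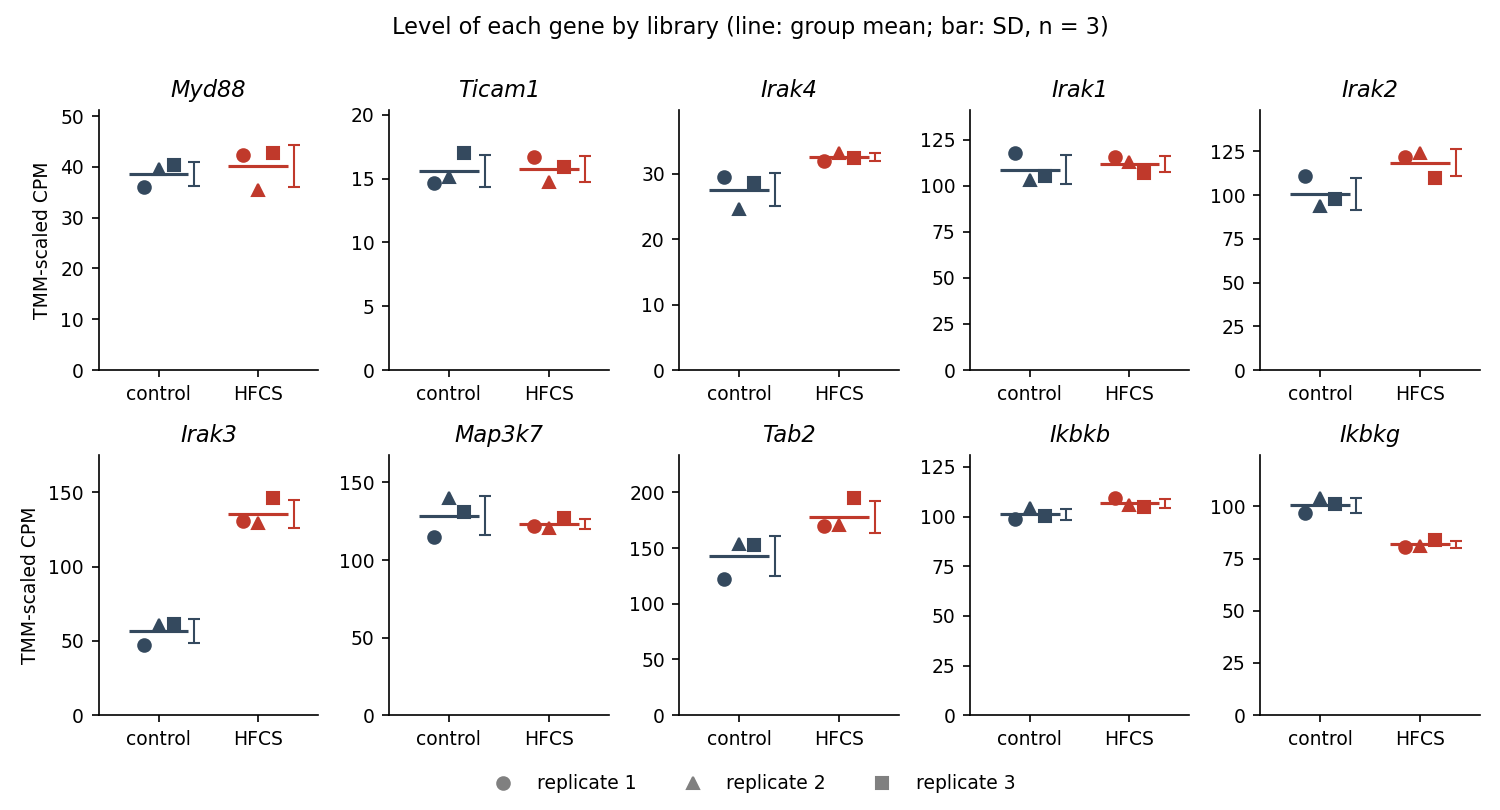
Each panel plots TMM-scaled CPM (vertical axis, from 0) of 1 gene in the 3 control and 3 HFCS libraries, with marker shape for the replicate number, a line for the group mean and a bar for the SD. Irak3 lies at 129 to 146 CPM in HFCS and at 47.2 to 61.6 CPM in control libraries, Ikbkg lies lower in HFCS, and the points of Myd88, Ticam1, Irak1, Irak2 and Map3k7 overlap between the groups.

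Irak3 and Ikbkg moved most in each direction. Irak1 and Map3k7 did not pass the test and were the only 2 of the 9 genes searched with an NF-kB match. The upstream sequences of these 4 genes are shown. Each is the RefSeq window (GRCm38.p6) from 250 bases before to 50 bases after the start site nearest to the gene's annotated 5′ end, read 5′ to 3′ on the gene's strand, and capitals mark matches to the NF-kB consensus, to AP-1 (TGANTCA) or to the interferon element ISRE, searched on both strands.
Irak3, chr10:120202081-120202380, minus strand: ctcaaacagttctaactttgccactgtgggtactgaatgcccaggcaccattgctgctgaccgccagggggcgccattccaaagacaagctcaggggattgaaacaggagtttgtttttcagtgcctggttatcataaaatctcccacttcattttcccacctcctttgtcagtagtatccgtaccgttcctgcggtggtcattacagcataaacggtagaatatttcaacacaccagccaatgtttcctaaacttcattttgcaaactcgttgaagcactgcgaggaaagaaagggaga
Ikbkg, chrX:74393041-74393340, plus strand: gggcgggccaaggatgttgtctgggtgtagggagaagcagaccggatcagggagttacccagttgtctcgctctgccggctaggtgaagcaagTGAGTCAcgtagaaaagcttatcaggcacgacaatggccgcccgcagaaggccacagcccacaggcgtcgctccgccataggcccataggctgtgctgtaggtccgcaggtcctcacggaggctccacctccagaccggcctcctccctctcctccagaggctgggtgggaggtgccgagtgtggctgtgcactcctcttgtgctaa
Irak1, chrX:74023869-74024168, minus strand: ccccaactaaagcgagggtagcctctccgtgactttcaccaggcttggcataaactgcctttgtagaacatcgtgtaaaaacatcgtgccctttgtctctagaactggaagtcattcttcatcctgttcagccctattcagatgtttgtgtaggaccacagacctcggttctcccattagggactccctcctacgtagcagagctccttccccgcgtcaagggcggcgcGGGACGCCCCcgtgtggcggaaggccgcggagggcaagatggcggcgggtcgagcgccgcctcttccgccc
Map3k7, chr4:31963857-31964156, plus strand: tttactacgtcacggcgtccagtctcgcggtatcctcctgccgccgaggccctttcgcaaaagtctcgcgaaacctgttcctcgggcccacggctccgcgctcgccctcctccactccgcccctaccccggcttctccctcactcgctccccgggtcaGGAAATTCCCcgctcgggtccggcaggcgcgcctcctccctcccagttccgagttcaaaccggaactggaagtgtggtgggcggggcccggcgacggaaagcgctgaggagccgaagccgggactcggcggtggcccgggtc

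The window of Irak3 held no match to any of these 3 motifs. The NF-kB consensus was matched in Irak1 (GGGACGCCCC, 21 to 12 bases before the start site) and in Map3k7 (GGAAATTCCC, 92 to 83 bases before it), and in none of the other 7 genes with a window. Of the genes without that match, Myd88, Ticam1 and Irak4 did not pass the test either. An NF-kB match stands in 8.46% of the 32851 RefSeq windows of this length. Ikbkg held an AP-1 match (TGAGTCA, 157 to 151 bases before its start site), as 7.81% of windows do, and the Myd88 window, not shown, an ISRE match (GAAAGCGAAA, 40 to 31 bases before the start site), as 3.44% do. The windows of Irak2 and Tab2 held none of the 3. In the window nearest to the annotated 5′ end, the 9 genes had from 8 (Irak3) to 44 (Tab2) CpG dinucleotides. The median was 7 over all windows, which include further windows of the same gene. The share of all windows with at least 8 was not counted, so these counts do not set the 9 genes apart. Some of the 9 have further windows with other counts, such as 2 for Tab2, 26 for Irak3 and 0, 13 and 10 for Ikbkg. The start site of the Myd88 window lies 1393 bases from the annotated 5′ end. These are matches of letters only, and binding was not measured.

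Among the adaptors, neither Myd88 nor Ticam1 passed the test. Myd88 (mm10 chromosome 9, 119335934 to 119341411, minus strand) had 42.3, 35.4 and 42.7 CPM in HFCS-labelled replicates 1 to 3 and 36.0, 39.6 and 40.4 CPM in control-labelled replicates 1 to 3. The groups overlapped, and HFCS replicate 2 was the lowest of all 6 libraries. Its log2 fold change was 0.05 with a 95% interval from -0.17 to 0.27, and its edgeR adjusted p was 0.688. Its exons share 290 bases with Acaa1a on the opposite strand, a peroxisomal thiolase gene that fell by 1.17 on the log2 scale (edgeR adjusted p = 2.1e-06). Whether strand was used in counting is not stated by the sources, so reads in that stretch cannot be told apart. Ticam1 (chromosome 17, 56269319 to 56276786, minus strand) was the lowest of the 10 genes, per length as well, with 14.7 to 16.7 CPM in HFCS-labelled and 14.6 to 17.0 CPM in control-labelled libraries. Its log2 fold change was 0.02 (95% interval -0.24 to 0.28, edgeR adjusted p = 0.925), and with upper-quartile scaling it was -0.015. Within each library the log2 ratio of Myd88 to Ticam1 counts per kilobase was 1.95 ± 0.0809 under HFCS and 1.92 ± 0.0712 in the controls (exact two-sided permutation p = 0.6, n = 3 each).

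Of the 4 IRAK genes, Irak3 and Irak2 were called. Irak3 (ENSMUSG00000020227, chromosome 10, 120141648 to 120202130, minus strand) had 131, 129 and 146 CPM in HFCS-labelled and 47.2, 60.8 and 61.6 CPM in control-labelled replicates 1 to 3. Each HFCS-labelled library lay above each control-labelled one, and control replicate 1 was the lowest of the 6. The log2 fold change was 1.26 ± 0.10 (SE) with a 95% interval from 1.03 to 1.49, and its edgeR adjusted p was 7.7e-06. A higher log2 fold change was found for 380 tested genes. At least 2-fold higher calls were made for 4.24% of all tested genes, and Irak3 was the only one of the 10 among them. It shares 192 exon bases, 5.22% of its exon sequence, with Tmbim4 on the opposite strand, an inhibitor of apoptosis that rose by 0.61 on the log2 scale (edgeR adjusted p = 4.9e-04).

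Irak2, the gene of the kinase linked to the late phase of the response, had 122, 124 and 110 CPM in HFCS-labelled and 111, 93.7 and 97.8 CPM in control-labelled libraries. HFCS replicate 3 lay below control replicate 1, so the groups overlapped. The log2 fold change was 0.23 ± 0.08 with an edgeR adjusted p of 0.0409. The call was lost with upper-quartile scaling (edgeR adjusted p = 0.0724) and when HFCS replicate 1, HFCS replicate 2, control replicate 2 or control replicate 3 was left out (0.109, 0.135, 0.131 and 0.119).

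Irak4, the kinase gene at the head of the chain, had 32.0, 33.2 and 32.5 CPM in HFCS-labelled and 29.5, 24.7 and 28.5 CPM in control-labelled libraries. The groups did not overlap, but the log2 fold change of 0.24 (95% interval 0.02 to 0.46) had an edgeR adjusted p of 0.0700. It passed without control replicate 1 (0.0216) and with library size alone (0.0226). Of its exon sequence, 395 bases are shared with Twf1 on the opposite strand, which did not pass (log2 fold change 0.15, edgeR adjusted p = 0.214). Irak1, which codes for a kinase that IRAK4 activates, had 107 to 115 CPM against 103 to 118 CPM, a log2 fold change of 0.04 (95% interval -0.12 to 0.20, edgeR adjusted p = 0.687).

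The make-up of the IRAK family, which does not depend on scaling between libraries, did not overlap between the groups. Counts were divided by the length of each gene's longest coding transcript and summed over the 4 genes. Irak3 took 35.3, 34.9 and 39.7% of the sum in HFCS-labelled and 17.1, 23.7 and 23.1% in control-labelled replicates 1 to 3. It was the most abundant IRAK gene per length in each HFCS-labelled library and the third of the 4 in each control-labelled one. Irak2 took 31.1 ± 1.90% against 36.6 ± 2.03%, Irak1 24.4 ± 0.831% against 32.8 ± 1.34% and Irak4 7.93 ± 0.143% against 9.30 ± 0.564% (mean ± SD, n = 3 each). None of the 4 shares overlapped between the groups, and each had a two-sided exact permutation p of 0.1 (0.1 adjusted over the 4 shares), the smallest that 3 libraries against 3 can give. The shares sum to 100%, so the lower shares of the other 3 genes are not separate findings. Per kilobase, Irak3 stood at 1.18 times Irak2 in HFCS-labelled and at 0.576 times Irak2 in control-labelled libraries (geometric means).

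**Figure D2:**
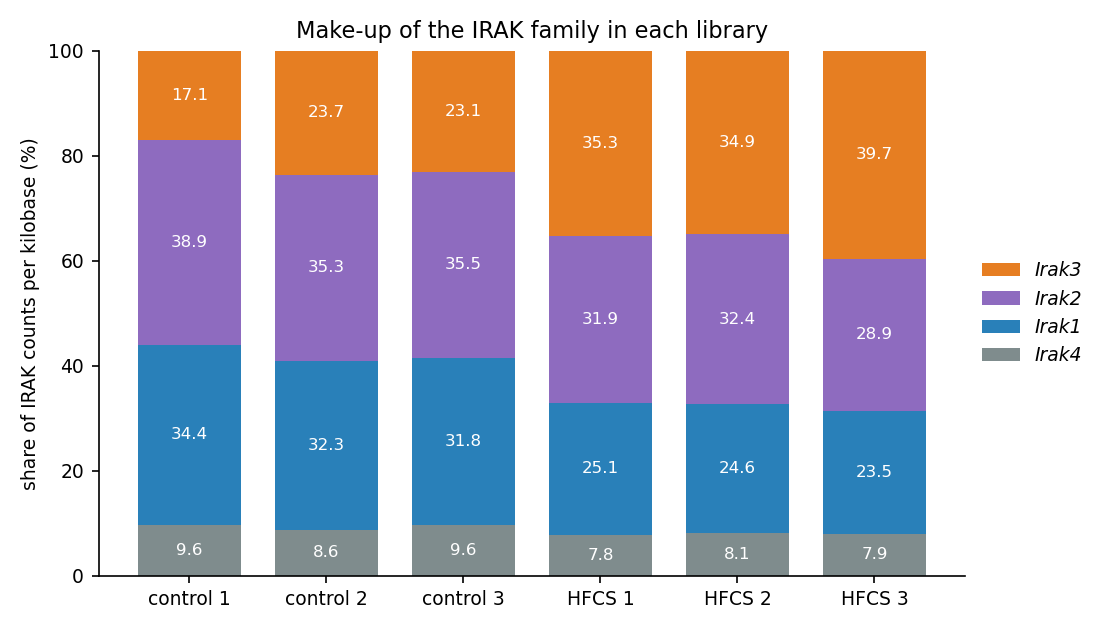
Stacked bars give, for each of the 6 libraries, the percentage of the summed IRAK counts per kilobase that belongs to Irak4, Irak1, Irak2 and Irak3. The Irak3 part is 34.9 to 39.7% in the HFCS bars and 17.1 to 23.7% in the control bars.

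Of the TAK1 pair, the gene of the ubiquitin-binding partner was higher and that of the kinase was not called. Tab2 (chromosome 10, 7905653 to 7956230, minus strand) had 169, 170 and 195 CPM in HFCS-labelled and 122, 154 and 153 CPM in control-labelled libraries. The groups did not overlap, with control replicate 1 the lowest and HFCS replicate 3 the highest. The log2 fold change was 0.32 ± 0.10 with an edgeR adjusted p of 0.0205, and without HFCS replicate 3 it was 0.26 and did not pass (0.0685). Map3k7 (chromosome 4, 31964097 to 32023467, plus strand) had 121 to 127 CPM in HFCS-labelled libraries, within the control range of 115 to 140 CPM. Its log2 fold change was -0.06 (95% interval -0.24 to 0.11, edgeR adjusted p = 0.558), and 0.018 with library size alone. The log2 ratio of Map3k7 to Tab2 within a library was -0.93 ± 0.0747 under HFCS and -0.55 ± 0.0644 in the controls, without overlap (exact two-sided permutation p = 0.1, 0.15 adjusted over 3 ratios, n = 3 each).

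Of the IKK subunits, Ikbkg was lower and Ikbkb was not called. Ikbkg (chromosome X, 74393290 to 74453854, plus strand), whose product NEMO binds ubiquitin chains and holds the IKK complex together, had 80.5, 80.9 and 83.9 CPM in HFCS-labelled and 96.8, 104 and 101 CPM in control-labelled libraries. Each HFCS-labelled library lay below each control-labelled one. The log2 fold change was -0.30 ± 0.07 (95% interval -0.44 to -0.15) with an edgeR adjusted p of 0.00402. Ikbkg shares 418 exon bases, 5.15% of its exon sequence, with G6pdx on the opposite strand, the first gene of the pentose phosphate pathway, which fell by 0.52 (edgeR adjusted p = 1.6e-04), and the part of such reads in the value was not tested.

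Ikbkb (chromosome 8, 22659212 to 22706589, minus strand), the gene of the catalytic subunit IKKβ, had 105 to 109 CPM in HFCS-labelled and 98.5 to 104 CPM in control-labelled libraries. The groups lay just apart, yet the log2 fold change of 0.08 (95% interval -0.06 to 0.22) did not pass (edgeR adjusted p = 0.349). Its replicates were the closest of the 10 genes in the control group, with a coefficient of variation of 2.88%. The log2 ratio of Ikbkb to Ikbkg counts per kilobase was 1.20 ± 0.0586 under HFCS and 0.82 ± 0.0184 in the controls, again without overlap (exact two-sided permutation p = 0.1, 0.15 adjusted over 3 ratios, n = 3 each).

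**Figure D3:**
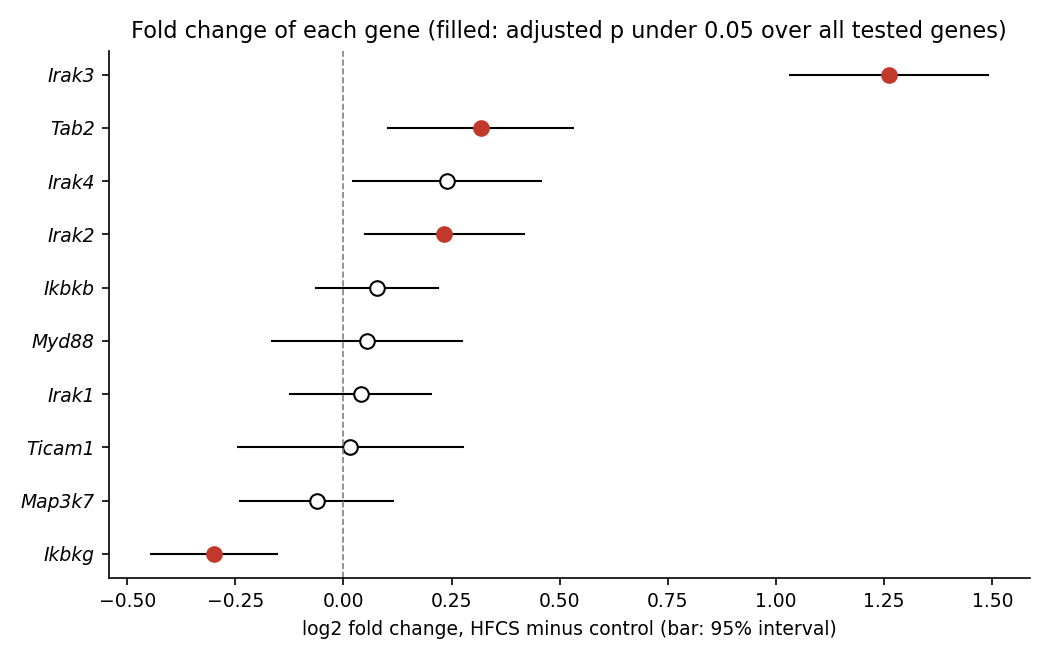
Points give the edgeR log2 fold change of each gene (HFCS minus control, horizontal axis) and bars its 95% interval, with filled points for an adjusted p under 0.05 over all tested genes. Irak3 stands at 1.26, apart from the other 9 genes, which lie between -0.30 and 0.32.

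Per kilobase of the longest coding transcript, the order of the 10 genes was alike in both groups apart from Irak3. In control-labelled libraries the highest were Tab2 (32.7 ± 4.06 CPM per kilobase), Irak2 (31.6 ± 2.85) and Irak1 (28.3 ± 2.07), whose libraries overlapped from each to the next. Ikbkb, Map3k7, Myd88 and Irak3 followed, and Map3k7, Myd88 and Irak3 overlapped likewise. Ikbkg (14.4 ± 0.513), Irak4 (8.02 ± 0.750) and Ticam1 (5.21 ± 0.420) came last, each apart from the next. In HFCS-labelled libraries Irak3 stood first (43.7 ± 2.99 CPM per kilobase), overlapping Tab2 (40.7 ± 3.27), which overlapped Irak2 (37.1 ± 2.40), and the other genes kept their order. Some places depend on the length used, that of Ikbkb the most. The longest coding transcript of Ikbkb has 3977 bases and the union of its annotated exons 19078. With the union Ikbkb dropped from 26.8 to 5.59 CPM per kilobase in HFCS-labelled libraries, to the ninth place. In control-labelled libraries Irak1 then stood above Irak2, and Irak3 above Myd88, each pair with overlap. In HFCS-labelled libraries Irak2 stayed above Irak1, and Irak3 lay apart from Tab2.

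Within the groups the genes varied in opposite senses. In control replicate 1, Irak3 (-0.25), Tab2 (-0.22) and Map3k7 (-0.16) lay below the mean of the control group on the log2 scale, while Irak2 (0.14), Irak1 (0.12) and Irak4 (0.10) lay above it. HFCS replicate 3 had Tab2 (0.13) and Irak3 (0.11) above and Irak2 (-0.11) and Irak1 (-0.06) below the mean of its group. The median size of such deviations over the 10 genes was 0.11 in control replicate 1 and 0.04 to 0.09 in the other 5 libraries.

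**Figure D4:**
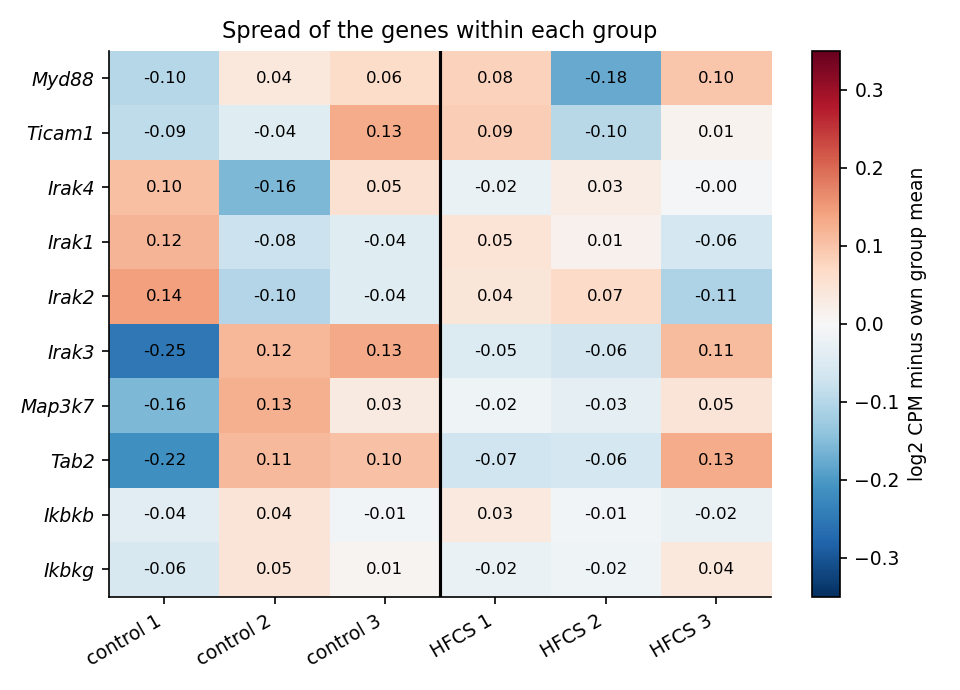
Each cell gives the log2 CPM of a gene (row) in a library (column) minus the mean of that library's own group, with red above and blue below. Control replicate 1 holds the lowest cell, Irak3 at -0.25, and has Irak1, Irak2 and Irak4 above the group mean.

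The other genes of the pathway were counted by role, from lists of 94 genes, of which 89 were in the table and 81 were tested. Of these, 28 rose, 7 fell and 46 did not pass, which is 43.2% called, near the 44.9% of all tested genes. Their median log2 fold change was 0.16.

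Among receptors that feed MyD88, the Toll-like receptor genes that passed were higher, and IL-1 family genes passed in both directions. Of 13 tested Toll-like receptor and co-receptor genes, 7 rose and 6 did not pass, at a median of 0.35. That is 53.8% called, where the test called 44.9% of all tested genes and 22.4% higher. Cd14, which hands lipopolysaccharide to TLR4, had a log2 fold change of 1.89 ± 0.08 and Tlr2, the receptor of bacterial lipopeptides, 0.87 ± 0.11. Of 4 tested IL-1 family receptor genes, Il1rap, a co-receptor shared by some members of that family, rose from 9.56 ± 2.74 to 20.2 ± 2.59 CPM. Il18rap, the accessory chain of the interleukin-18 receptor, fell from 118 ± 16.4 to 49.6 ± 2.64 CPM, and Sigirr, an inhibitory member, fell by 0.44 on the log2 scale. The ligand-binding chains Il1r1 and Il18r1 were too low to test, at 0.0931 and 0 CPM on average in HFCS-labelled and 0.574 and 0.385 CPM in control-labelled libraries.

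Of 4 further adaptor genes, the bridging adaptors Tirap and Ticam2 rose and 2 did not pass. Tirap, which carries MyD88 to the membrane, rose from 26.0 ± 4.02 to 42.3 ± 1.08 CPM (log2 fold change 0.71 ± 0.11, edgeR adjusted p = 5.8e-04). Ticam2, which links TRIF to TLR4, rose from 6.21 ± 1.55 to 14.4 ± 0.151 CPM (log2 fold change 1.22 ± 0.17, edgeR adjusted p = 2.4e-04). Traf6, the ubiquitin ligase between IRAKs and TAK1, rose from 58.3 ± 5.46 to 75.6 ± 8.52 CPM (log2 fold change 0.38 ± 0.10, edgeR adjusted p = 0.0106). Among the 12 tested genes for TRAF, Pellino and RIP proteins, Traf1 (1.10), Traf2 (0.80) and Traf6 rose. Traf5 (-0.75) fell and 8 did not pass, which is 33.3% called. Of 4 inhibitors of the adaptors, Rnf216 rose (0.32), Pdlim2 fell (-0.76) and 2 did not pass.

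Of the direct partners of TAK1 and IKKβ, Tab1, Tab3 and Chuk were not called. Tab1, the activating subunit of TAK1, had 50.4 ± 0.500 against 42.7 ± 5.20 CPM (log2 fold change 0.24, edgeR adjusted p = 0.0652). Tab3, a close relative of Tab2, had 26.2 ± 4.86 against 22.9 ± 3.16 CPM (0.19, edgeR adjusted p = 0.322), and Chuk, the gene of the kinase IKKα, 121 ± 5.74 against 107 ± 10.2 CPM (0.17, edgeR adjusted p = 0.107). Of 7 tested genes for TAK1 partners and related kinases, 3 rose, among them Map3k3 (0.33) and Map3k14 (0.41), the kinase of the alternative NF-kB pathway. Map3k8 (-0.33) fell and 3 did not pass, which is 57.1% called, against 44.9% of all tested genes. Of 8 IKK and IKK-related genes, 3 rose and 5 did not pass (37.5% called). Ikbke, an IKK-related kinase gene known to be inducible, rose from 107 ± 7.28 to 250 ± 0.806 CPM (log2 fold change 1.23 ± 0.07, edgeR adjusted p = 5.8e-07), and Azi2, an adaptor of that kinase, rose by 0.73.

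**Figure D5:**
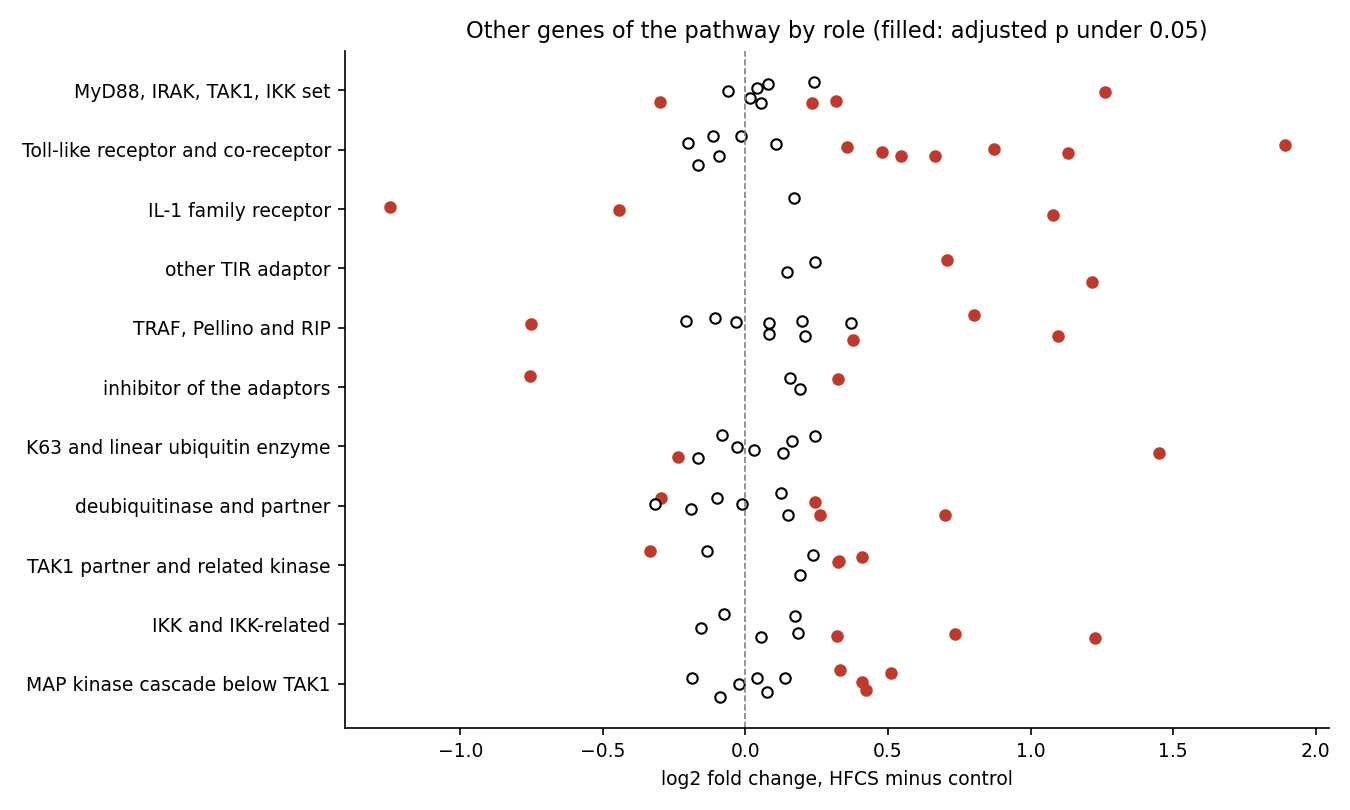
Points give the log2 fold change of each tested gene (horizontal axis, HFCS minus control) by role, with the MyD88, IRAK, TAK1 and IKK set in the top line and filled points for an adjusted p under 0.05. In the line of Toll-like receptor and co-receptor genes the 7 filled points all lie above 0, up to Cd14 at 1.89.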

How the data were processed

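The authors deposited 1 table of raw read counts per gene for the 6 libraries, with no normalisation. The submitters' processing notes list CASAVA, HISAT2 2.0.5, featureCounts 1.5.0-p3 and the build mm10. No source states the annotation release, the strand setting or a filter. Gene names and lengths came from GENCODE M21, which held 23676 of the 24379 genes at the same position, the 10 genes included. The 10 genes and the pathway lists were chosen with earlier results of these data known. All 10 were named. In each pathway role up to 2 called genes of smallest adjusted p were named, with Tirap, Ticam2, Traf6, Tab1, Tab3 and Chuk in any case, and the few others, markers included, were chosen after their values were seen.

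A minimum count of 10 in filterByExpr left 14360 genes, which were scaled by TMM. edgeR 4.0.16 (R 4.3.3; glmQLFit, glmQLFTest, no covariate) compared the groups, with Benjamini-Hochberg adjustment over all tested genes and 0.05 as threshold. SEs were derived from the F statistics. Shares and ratios within libraries were compared by exact permutation of libraries. The fit was tested on simulated data, in which far fewer genes changed than were called here. It recovered 25 of 50 genes changed 1.5-fold, 42 of 50 changed 2-fold and 50 of 50 changed 3-fold. Of its 177 calls, 10 were false. Alternatives were scaling by median of ratios, upper quartile or library size, DESeq2 1.42.0, voom (limma 3.58.1), other filters, the replicate number as a block and each library left out, and, added after seeing the data, exon-union lengths. Total counts of 13108485 to 15340255 put 3 counts at 0.196 to 0.229 CPM. Such floors cover counting error only.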

Additional observations from a re-analysis of the deposited data

How the results depend on the processing

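The 4 calls among the 10 genes were the same with median-of-ratios scaling, DESeq2, limma-voom, no filter on low counts and a filter of 10 counts. Irak3 (log2 fold change 1.15 to 1.34) and Ikbkg (-0.33 to -0.22) kept their calls in all 14 alternatives, including each library left out. Of 140 fold changes recomputed, 126 kept direction and call, 6 lost a call and 2 gained one. Another 6 changed sign, for genes that were not called: Ticam1 was -0.015 with upper-quartile scaling and changed sign without HFCS replicate 1, control replicate 1 or control replicate 2, with a range of -0.025 to 0.086 over the libraries left out. Map3k7 was 0.018 with library size alone and changed sign without control replicate 2, with a range of -0.13 to 0.0042. The causes were not tested. Over all genes, 5115 to 7550 were called with a library left out, the most without control replicate 1, against 6447. The higher share of Irak3 was 13.3 to 16.6 percentage points over the alternatives, lengths included (15.3 as reported).

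Replicate numbers share no stated source. Deviations of same-numbered libraries correlated at 0.17, -0.06 and 0.19 across genes, and those of differently numbered libraries at -0.30 to 0.16. With 3 libraries per group, such values cannot settle whether the numbers pair the libraries. With the replicate number as a block, 7152 genes were called and the 10 genes kept the same 4 calls, 3 higher and 1 lower. In control replicate 1, 3 counts correspond to 0.202 CPM, far under the level of each of the 10 genes.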

Other observations

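Ubiquitin enzymes act between the IRAK and IKK steps. Of 9 tested genes for enzymes of lysine-63 and linear chains, Birc3, a ubiquitin ligase of TNF receptor complexes, rose by 1.45 and Rbck1, a subunit of the linear chain ligase, fell by 0.24 on the log2 scale, while 7 did not pass (22.2% called, against 44.9% of all tested genes). Of 10 deubiquitinases and partners, 3 rose, among them Otud7b (0.70), Tnip1 fell by 0.30 and 6 did not pass (40.0% called). Tnfaip3, which codes for the feedback enzyme A20, had 49.1 ± 4.71 against 49.6 ± 5.68 CPM (HFCS against control; log2 fold change -0.01, edgeR adjusted p = 0.928), chosen here after its value was seen.

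Below TAK1, 4 of 10 tested genes of the MAP kinase cascade rose and 6 did not pass, which is 40.0% called against 44.9% of all tested genes. Map2k1 rose by 0.42 and Map2k4, a kinase of JNK, by 0.51 on the log2 scale.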
